A study of Mus musculus with 8 samples.

Results

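The neuromuscular junction genes described here are 10 mouse genes that build the muscle side of the synapse between motor nerve and muscle fiber. They are the acetylcholine receptor subunit genes Chrna1, Chrnb1, Chrnd, Chrne and Chrng, the signaling genes Musk, Lrp4 and Dok7, the receptor-anchoring gene Rapsn and the acetylcholinesterase gene Ache. They were chosen by gene symbol, and all 10 were found among the 27041 genes of a table of RNA-seq read counts. Of these, 9 were tested, and Chrng fell under the limit of a mean of more than 50 reads, which 11364 genes passed.

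Counts came from skeletal muscle of 9-week-old C57BL/6J mice, which the study names as gastrocnemius of males. Ctrl animals carried LSD1 L2/L2 alleles, in which the first exon of Kdm1a, the gene of the histone demethylase LSD1, is flanked by loxP sites. LSD1skm-/- animals carried the same floxed alleles and HSA-Cre, whose human skeletal actin promoter drives the recombinase in muscle fibers, so that nerve, Schwann and connective tissue cells of the muscle were not targeted. HSA-Cre is not induced by a drug, so the deletion is not limited to adult muscle. The labels name 8 libraries, 4 per group, and the table holds Ctrl replicates 1 to 4 and LSD1skm-/- replicates 1 and 2. LSD1skm-/- replicates 3 and 4 were not analysed here. Library totals ran from 30654828 to 41278769 reads.

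At this synapse the nerve releases acetylcholine, which opens a receptor made of 5 subunits in the muscle membrane. Fetal muscle builds the channel with the gamma subunit (Chrng) and adult muscle with the epsilon subunit (Chrne). The nerve also secretes agrin, which binds LRP4. LRP4 then activates the kinase MuSK, DOK7 sustains MuSK activity inside the cell, and rapsyn clusters the receptors under the nerve ending. Transcription of these genes is concentrated in the few nuclei beneath the synapse, and electrical activity and the nerve's signals are known to shape it. Muscle tissue from which the library was made also holds other cell types, and in RNA of whole muscle fewer cells of a type and less RNA per cell cannot be told apart.

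Kdm1a itself was read first as a check of the labels. It reached 22.9, 22.0 and 28.1 CPM (reads on a gene relative to the reads on all tested genes, scaled by edgeR's TMM method) in Ctrl replicates 1 to 3, and 2.96 and 3.48 CPM in LSD1skm-/- replicates 1 and 2. In the library labelled Ctrl replicate 4 it stood at 3.66 CPM, at the LSD1skm-/- level, and so contradicts that library's label. Labels were kept as deposited, and the members are given with all 6 libraries and again without this library. The labels number the replicates without saying whether they are separate mice, so p-values measure the spread between these samples. The 10 fast-fiber markers, Myh4, Acta1 and Ckm among them, summed to between 175920 and 212640 CPM in every library. The defining genes of skeletal muscle were thus present throughout.

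Promoter sequences are shown for 3 receptor subunit genes, because Chrna1 and Chrnb1 were called higher without the library labelled Ctrl replicate 4 and Chrne was not. Each is the 250 bases before the RefSeq transcription start in GRCm38.p6, read 5′ to 3′ on the gene's own strand, which is the minus strand for all 3. Capitals mark the E-box CANNTG, bound by myogenic factors such as MyoD and myogenin, and the N-box TTCCGG (here as CCGGAA), bound by ETS factors such as GABP. The windows are chr2:73580339-73580588 for Chrna1, chr11:69795938-69796187 for Chrnb1 and chr11:70619195-70619444 for Chrne.
Chrna1: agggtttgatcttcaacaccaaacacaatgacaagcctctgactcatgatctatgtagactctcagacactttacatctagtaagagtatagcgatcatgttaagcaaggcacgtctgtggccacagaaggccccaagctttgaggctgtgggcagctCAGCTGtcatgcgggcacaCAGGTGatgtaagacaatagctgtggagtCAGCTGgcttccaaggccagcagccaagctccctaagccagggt
Chrnb1: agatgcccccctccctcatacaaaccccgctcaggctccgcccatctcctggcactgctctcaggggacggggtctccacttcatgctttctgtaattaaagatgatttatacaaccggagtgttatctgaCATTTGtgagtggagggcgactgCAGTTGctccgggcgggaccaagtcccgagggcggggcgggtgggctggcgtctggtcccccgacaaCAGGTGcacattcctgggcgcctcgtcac
Chrne: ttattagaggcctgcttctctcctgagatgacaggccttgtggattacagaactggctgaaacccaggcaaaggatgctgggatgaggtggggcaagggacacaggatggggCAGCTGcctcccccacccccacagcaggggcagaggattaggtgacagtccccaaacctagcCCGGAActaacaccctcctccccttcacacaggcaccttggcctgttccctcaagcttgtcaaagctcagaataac

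Counted back from the base before the start as -1, E-boxes began at -92, -73 and -44 in the Chrna1 window and at -119, -96 and -29 in the Chrnb1 window. The Chrne window held 1 E-box at -138 and the N-box at -76. RefSeq windows were also read for Chrng, Musk, Dok7 and Ache, and of these Chrng and Musk held 3 E-boxes each, Ache 1, and Dok7 1 in the window of one of its starts. Neither the NRF1 motif nor the glucocorticoid receptor motif AGAACA was found on either strand of any of these windows. For comparison, 66.2% of all 32851 promoter windows of that length held an E-box and 12% the N-box. The NRF1 motif was in 4.98% of them and AGAACA in 16.1%. E-box and NRF1 patterns read the same on both strands, so each match was counted once, and no motif match is evidence of binding.

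The receptor subunits were compared next, because Chrna1, Chrnb1 and Chrnd share a channel with Chrne. Chrna1 encodes the alpha subunit, which binds acetylcholine. It reached 15.9, 16.1 and 12.3 CPM in Ctrl replicates 1 to 3, 26.2 CPM in the library labelled Ctrl replicate 4, and 23.1 and 24.3 CPM in LSD1skm-/- replicates 1 and 2. The library labelled Ctrl replicate 4 was thus the highest of the 6, and only without it did the groups separate. By edgeR's quasi-likelihood test, the log2 fold change of LSD1skm-/- over Ctrl with all 6 libraries was 0.42 ± 0.27 (standard error), with an adjusted p = 0.63. Without that library it was 0.69 (standard error 0.14, edgeR adjusted p = 0.0374), a fold of 1.61.

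Chrnb1 encodes the beta subunit, through which rapsyn is linked to the receptor. Its levels were 33.1, 29.5 and 28.3 CPM in Ctrl replicates 1 to 3, 68.9 CPM in the library labelled Ctrl replicate 4, and 51.5 and 58.0 CPM in the LSD1skm-/- libraries. Chrnb1 followed the same order as Chrna1, with the library labelled Ctrl replicate 4 above the LSD1skm-/- libraries and Ctrl replicates 1 to 3 below them. The log2 fold change was 0.45 with all libraries (standard error 0.35, edgeR adjusted p = 0.683). Without that library it was 0.86 (standard error 0.11, edgeR adjusted p = 0.00735), a fold of 1.81, the smallest p among the members. In that comparison, leaving out LSD1skm-/- replicate 2 as well ended the call of Chrnb1 (log2 fold change 0.77, edgeR adjusted p = 0.0761) and of Chrna1 (0.65, edgeR adjusted p = 0.214). The Chrna1 call was also lost without Ctrl replicate 1 (edgeR adjusted p = 0.0797), Ctrl replicate 3 (0.0602) or LSD1skm-/- replicate 1 (0.113), while Chrnb1 passed without each of these.

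Chrnd encodes the delta subunit and was the member with a low count whose groups separated by the labels alone. It had 77, 60, 75 and 98 reads in Ctrl replicates 1 to 4 and 118 and 128 reads in LSD1skm-/- replicates 1 and 2, or 2.23, 1.85, 2.17 and 2.24 CPM against 3.72 and 3.40 CPM. Both LSD1skm-/- libraries lay above all 4 Ctrl libraries, the library labelled Ctrl replicate 4 included. Among all tested genes, both LSD1skm-/- libraries lay above every Ctrl library for 9.80% with all libraries and for 20.1% without the library labelled Ctrl replicate 4, and of the members this held for 1 of 9 and 5 of 9. For Chrnd, edgeR gave a log2 fold change of 0.74 (standard error 0.19, unadjusted p = 0.00491, adjusted p = 0.557) and 0.77 without that library (standard error 0.19, adjusted p = 0.0634 by edgeR).

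Chrne, the subunit of the adult receptor, did not pass the test in either comparison. Ctrl replicates 1 to 3 gave 12.5, 11.9 and 12.5 CPM, the library labelled Ctrl replicate 4 gave 13.2 CPM, and the LSD1skm-/- libraries gave 13.2 and 10.1 CPM. The groups overlapped, and the log2 fold change was -0.11 (standard error 0.14, edgeR adjusted p = 0.799) and of -0.08 without that library (standard error 0.14, edgeR adjusted p = 0.798). The sign of this change turned positive (0.07 with all libraries and 0.10 without the library labelled Ctrl replicate 4) when LSD1skm-/- replicate 2 was left out.

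Within each library, the ratio of another subunit to Chrne does not depend on the scaling between libraries. On the log2 scale of CPM, Chrnb1 over Chrne was 1.40, 1.31 and 1.17 in Ctrl replicates 1 to 3, 2.37 in the library labelled Ctrl replicate 4, and 1.96 and 2.52 in the LSD1skm-/- libraries. Chrna1 over Chrne was 0.34, 0.43 and -0.03 in Ctrl replicates 1 to 3, 0.98 in the library labelled Ctrl replicate 4, and 0.81 and 1.26 in the LSD1skm-/- libraries. Chrnd over Chrne ranged from -2.65 to -2.46 in the 4 Ctrl libraries and was -1.81 and -1.55 in the LSD1skm-/- libraries, so its groups did not overlap. The mean log2 CPM of Chrna1, Chrnb1, Chrnd and Chrne was 3.52 ± 0.29 (SD, n = 4) in Ctrl and 3.93 ± 0.05 (SD, n = 2) in LSD1skm-/- libraries. Of the Ctrl libraries, the one labelled Ctrl replicate 4 stood at 3.94 and the rest between 3.31 and 3.47, and as a score over members this mean was not tested.

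**Figure D1:**
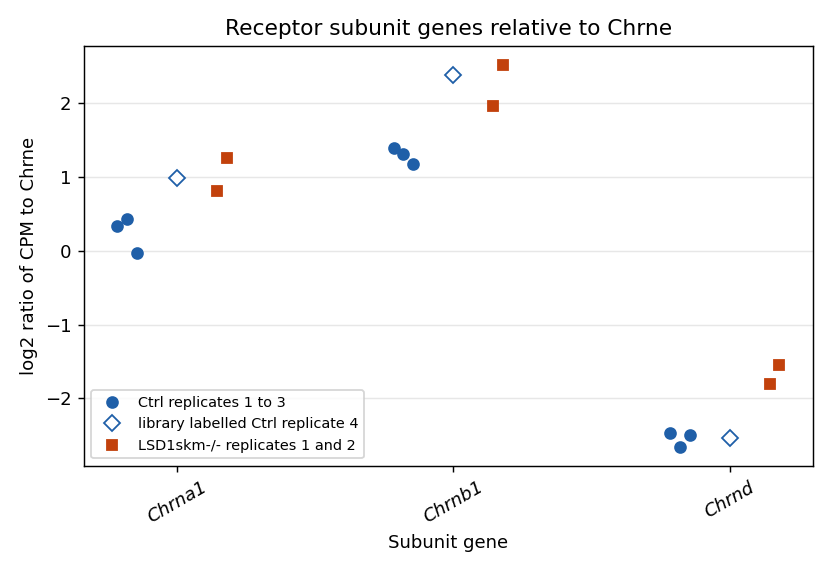
Log2 ratio of the CPM of Chrna1, Chrnb1 and Chrnd to that of Chrne (vertical axis) in each of the 6 libraries, with 1 point per library. For Chrnd both LSD1skm-/- points (-1.81 and -1.55) lie above every Ctrl point, whereas for Chrna1 and Chrnb1 the open diamond, the library labelled Ctrl replicate 4, lies among them.

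Chrng, the fetal subunit, was near the floor. It had 3, 3, 6 and 4 reads in Ctrl replicates 1 to 4 and 2 and 5 reads in the LSD1skm-/- libraries, so it was not tested and no fold change is given. Of the reads on Chrng and Chrne together in a library, Chrng took between 0.476% and 1.37%, and over all 6 libraries 23 of the reads fell on Chrng and 2629 on Chrne, a share of 0.867% (exact Clopper-Pearson 95% interval from 0.551% to 1.299%, counting error only). The mean log2 ratio of Chrng to Chrne was -6.27 in both groups, with an exact two-sided permutation p = 1, in a design that allows none below 0.067 (4 against 2 libraries) and so cannot pass 0.05. Without the library labelled Ctrl replicate 4 the difference was -0.08 (exact permutation p = 1, smallest possible 0.1). These p-values say nothing on whether the ratio differs. The ratios include a prior count of 2, close to the Chrng reads themselves, which raises them and draws the libraries together. With all libraries, leaving out LSD1skm-/- replicate 1 moved the difference to 0.52 and leaving out replicate 2 moved it to -0.53.

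The genes of the agrin receptor complex and its adaptor overlapped between the groups. Musk encodes the muscle-specific kinase. It reached 28.1, 25.0 and 39.0 CPM in Ctrl replicates 1 to 3, 15.1 CPM in the library labelled Ctrl replicate 4, and 29.7 and 15.8 CPM in the LSD1skm-/- libraries. LSD1skm-/- replicate 1 lay among Ctrl replicates 1 to 3 and LSD1skm-/- replicate 2 beside the library labelled Ctrl replicate 4, so the groups overlapped. The log2 fold change of Musk was -0.24 (standard error 0.38, edgeR adjusted p = 0.846), or -0.43 without the library labelled Ctrl replicate 4 (standard error 0.29, edgeR adjusted p = 0.466). The latter moved to -0.96 when LSD1skm-/- replicate 1 was dropped as well (unadjusted p = 0.0139, edgeR adjusted p = 0.142). With all libraries but LSD1skm-/- replicate 2 the sign turned, to 0.15.

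Lrp4 encodes the receptor for agrin. It gave 7.002, 15.8 and 6.72 CPM in Ctrl replicates 1 to 3, 8.96 CPM in the library labelled Ctrl replicate 4, and 10.1 and 8.40 CPM in the LSD1skm-/- libraries. Ctrl replicate 2 was the highest of all, and the log2 fold change was -0.05 (standard error 0.34, edgeR adjusted p = 0.969) with all libraries and -0.08 (edgeR adjusted p = 0.928) without the library labelled Ctrl replicate 4. Dropping Ctrl replicate 2 turned these to 0.29 (edgeR adjusted p = 0.766) and 0.43 (unadjusted p = 0.0394, edgeR adjusted p = 0.251). Dok7, the cytoplasmic activator of MuSK, gave 37.7, 30.7 and 29.5 CPM in Ctrl replicates 1 to 3, 23.1 CPM in the library labelled Ctrl replicate 4, and 26.8 and 31.7 CPM in the LSD1skm-/- libraries. Its log2 fold change was -0.05 (standard error 0.19, edgeR adjusted p = 0.945) and -0.15 without the library labelled Ctrl replicate 4 (edgeR adjusted p = 0.594), with groups that overlapped both times.

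Rapsn encodes rapsyn, the scaffold of the receptor clusters. Its levels were 24.3, 26.2 and 21.2 CPM in Ctrl replicates 1 to 3, 30.7 CPM in the library labelled Ctrl replicate 4, and 29.8 and 31.9 CPM in the LSD1skm-/- libraries. The groups separated only without that library, where the log2 fold change was 0.37 (standard error 0.12, unadjusted p = 0.0157, edgeR adjusted p = 0.136), against 0.27 with all libraries (edgeR adjusted p = 0.601).

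Ache encodes the enzyme that clears acetylcholine from the cleft. It gave 28.2, 35.5 and 26.3 CPM in Ctrl replicates 1 to 3, 40.4 CPM in the library labelled Ctrl replicate 4, and 39.6 and 51.7 CPM in the LSD1skm-/- libraries. LSD1skm-/- replicate 2 was the highest, and the library labelled Ctrl replicate 4 lay just above LSD1skm-/- replicate 1. The log2 fold change was 0.48 (standard error 0.19, unadjusted p = 0.0382, adjusted p = 0.557 by edgeR) and 0.61 without that library (standard error 0.17, edgeR adjusted p = 0.0902). With all libraries the unadjusted p of Ache rose to 0.295 on leaving out LSD1skm-/- replicate 2. It was 0.0868 if Ctrl replicate 1 was dropped, and 0.0735 if Ctrl replicate 3 was. Ache shares 98 exonic bases with the noncoding gene Gm42456 on the opposite strand. The library kit marks strand, but the strand setting of the counting is not given in the sources used here, so reads of the pair cannot be told apart.

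**Figure D2:**
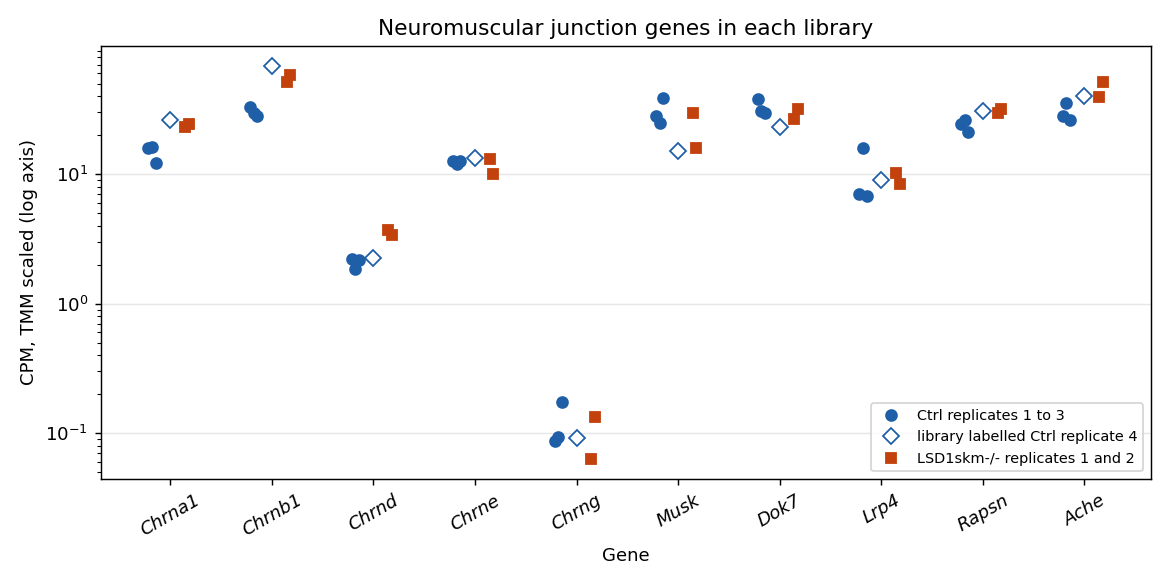
CPM (log axis, TMM scaled) of the 10 neuromuscular junction genes in each library, with filled circles for Ctrl replicates 1 to 3, open diamonds for the library labelled Ctrl replicate 4 and squares for LSD1skm-/- replicates 1 and 2. Chrng sits below 0.18 CPM in every library, and Chrnd is the member whose squares lie clear of every Ctrl point.

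Counted together, 5 of the 9 tested members had a positive fold change in each comparison. With all 6 libraries none had an adjusted p under 0.05, as was true of the whole table (0% of tested genes by edgeR, 1011 genes at an unadjusted p under 0.05, and 46 genes by DESeq2, none of them a member). By the thresholds of the study's methods, an unadjusted p under 0.05 with a fold above 1.3 or below 0.77, Chrnd and Ache were higher and no member was lower, against 6.31% of all tested genes in either direction and 3.43% higher. Without the library labelled Ctrl replicate 4, edgeR's adjusted p called Chrna1 and Chrnb1 higher, against 5.27% of tested genes called and 4.25% called higher. By the study's thresholds it called 4 members higher, Chrna1, Chrnb1, Chrnd and Ache, against 15.0% of genes in either direction and 9.96% higher. DESeq2 without that library gave those 4 members an adjusted p under 0.05 (Chrnd 0.0484, Ache 0.0219), against 6.18% of genes called higher. The median log2 fold change of the tested members was 0.27 with all libraries and 0.37 without that library, beside medians of -0.01 and 0.00 over all tested genes.

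**Figure D3:**
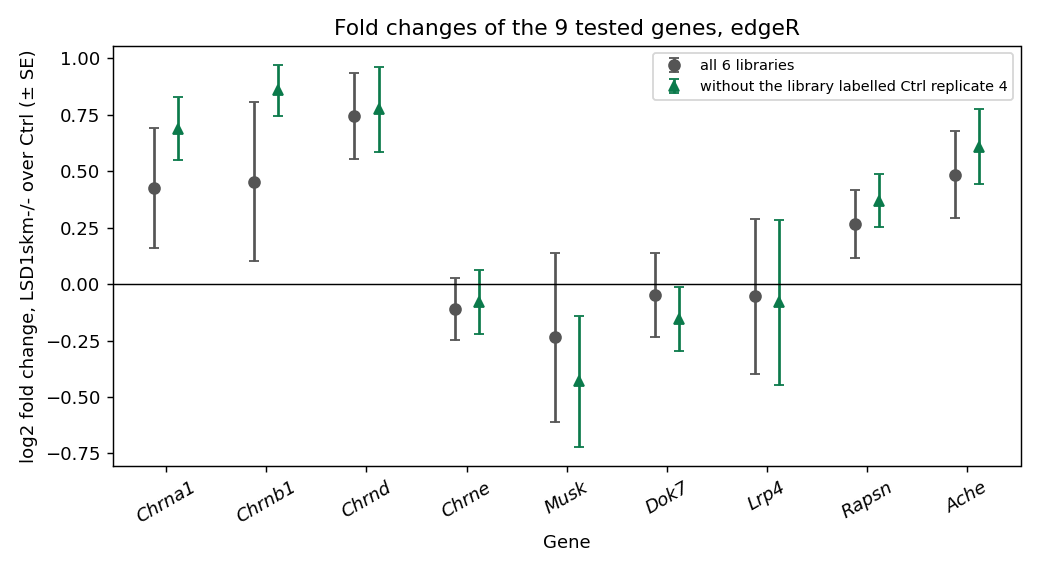
Log2 fold change of LSD1skm-/- over Ctrl with its standard error (vertical axis) for the 9 tested members, from edgeR with all 6 libraries (circles) and without the library labelled Ctrl replicate 4 (triangles). Leaving that library out moves Chrnb1 from 0.45 to 0.86 and Chrna1 from 0.42 to 0.69, while Chrnd changes only from 0.74 to 0.77.

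Levels of different genes were compared per kilobase of exon, since long transcripts collect more reads. In Ctrl the mean was 15.8 ± 7.7 CPM per kilobase for Chrnb1 and 14.2 ± 2.2 for Rapsn (SD, n = 4), and these neighbours did not differ beyond their spread. Next came Chrne (7.43 ± 0.32), Musk (7.10 ± 2.61), Dok7 (7.08 ± 1.40) and Ache (7.05 ± 1.41), which overlapped as well. Chrna1 followed at 4.02 ± 1.37, then Lrp4 at 0.915 ± 0.402, Chrnd at 0.646 ± 0.056 and Chrng at 0.0267 ± 0.0101, with Lrp4 and Chrnd not apart beyond their spread. Without the library labelled Ctrl replicate 4 the mean of Chrnb1 was 12.0 and that of Chrna1 3.36, against 21.6 and 5.40 in the LSD1skm-/- libraries. The places of Ache and Dok7 depend on the length used. The longest coding transcript of Ache is 2186 bases against 4623 bases of exon in all, which puts its Ctrl mean at 14.9. For Dok7 these lengths are 2779 and 4275 bases. Its Ctrl mean by the longest coding transcript is 10.9 ± 2.1, beside 7.77 for Chrne and 7.83 for Musk.

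Position and sequence were taken from GENCODE vM21 on GRCm38, the build named for the mapping. Chrnd (chromosome 1, 87190607 to 87200070) and Chrng (chromosome 1, 87204657 to 87212694) are neighbours on the plus strand, and Chrnb1 (69784036 to 69795943) and Chrne (70614883 to 70619216) both lie on the minus strand of chromosome 11. Chrna1 lies on the minus strand of chromosome 2 (73563215 to 73580338), where Rapsn (91035620 to 91045729) and Lrp4 (91457511 to 91513779) lie on the plus strand. Of the 50-base stretches of the Chrna1 exons 3.02% occur in other genes, and of those of Ache 1.17%. A read from a stretch that also lies elsewhere in the genome does not align uniquely and was not counted. For Ache the shared stretches include those of its overlap with Gm42456 at the same place, where a read can still align uniquely. Chrnb1, Chrnd, Chrne, Chrng, Musk, Dok7 and Rapsn shared none.

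Across the 6 libraries, the members most like each other were Chrna1 and Rapsn (Pearson r of log2 CPM 0.97), then Chrnb1 and Chrna1 (0.96), and Ache was closest to Rapsn (0.95). Chrne was closest to Musk (0.39), and its r with Chrna1 was -0.12. Outside the members, the fibroblast marker Col3a1, chosen after its values were seen, had an r of 0.98 with Chrnb1, above that of any member, and of 0.94 with Chrna1. Of all tested genes outside the subunits, Cdk18 (0.999), Plagl1 (0.998) and Ptprk (0.998) came closest to the mean of the 4 adult subunits, and Cdk18 had 4.96 to 5.93 CPM in Ctrl replicates 1 to 3, 10.4 CPM in the library labelled Ctrl replicate 4, and 10.0 and 10.4 CPM in the LSD1skm-/- libraries. These r values describe 6 libraries that share their groups and scaling, and they were not tested.

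Summed markers of other cell types are given beside these results, and their part in them was not tested. Over all tested genes, 6.31% passed the study's thresholds with all libraries and 15.0% without the library labelled Ctrl replicate 4. The sums of fibroblast and red blood cell markers had the same order of Ctrl replicates 1 to 3 below the remaining libraries as Chrna1 and Chrnb1. Among the fibroblast markers Dcn departed from this order. It had 220, 196 and 233 CPM in Ctrl replicates 1 to 3 and 220 CPM in the library labelled Ctrl replicate 4. The 6 fibroblast markers summed to between 430 and 476 CPM in Ctrl replicates 1 to 3, 699 CPM in the library labelled Ctrl replicate 4, and 608 and 717 CPM in the LSD1skm-/- libraries, and all 6 had a positive fold change. Of these, 2 passed the study's thresholds with all libraries and 5 without that library, where edgeR's adjusted p called Col3a1 and Lum. The 5 red blood cell markers summed to 28.2 to 43.7 CPM in Ctrl replicates 1 to 3, 52.2 CPM in the library labelled Ctrl replicate 4, and 64.1 and 65.8 CPM in the LSD1skm-/- libraries, and none was at 0. Of these 5, 4 passed the study's thresholds upward with all libraries and 5 without that library, where edgeR's adjusted p called Hbb-bs and Alas2. Of the 10 fast-fiber markers, 4 had a positive fold change with all libraries, and 1 passed the study's thresholds in each comparison, downward. Myh4 had 51344 to 57082 CPM in Ctrl replicates 1 to 3 and 39177 CPM in the library labelled Ctrl replicate 4. The LSD1skm-/- libraries had 39803 and 35253 CPM of Myh4, which DESeq2 called lower without that library (adjusted p = 0.000187). The 7 slow-fiber markers were all lower in LSD1skm-/- libraries (443 and 795 CPM summed, against 1031 to 2069 CPM in Ctrl), and 6 of them passed the study's thresholds in each comparison, Myh7 also by edgeR's adjusted p without the library labelled Ctrl replicate 4. The 5 tested Schwann markers were all lower as well and none passed in either comparison (summed over all 8, 59.1 and 97.8 CPM against 48.6 to 169 CPM in Ctrl). The 5 motor neuron markers in the table summed to under 0.56 CPM in every library, and Slc5a7, which loads choline for acetylcholine synthesis, was at 0 in 5 of 6. Adipocyte markers were lower in all 5 tested, with 4 past the study's thresholds in each comparison and a median log2 fold change of -4.91 with all libraries and -4.43 without that library. Their sum, mostly Fabp4, was 166 and 177 CPM against 172 to 487 CPM in Ctrl, while Adipoq had 12.8, 9.70, 0.783 and 19.6 CPM in Ctrl replicates 1 to 4 and 0.126 and 0.558 CPM in the LSD1skm-/- libraries. Satellite cell markers summed to 23.8 to 38.6 CPM in Ctrl and 32.3 and 30.7 CPM in the LSD1skm-/- libraries, endothelial markers to 179 to 235 CPM against 156 and 158 CPM, and immune markers to 33.7 to 95.7 CPM against 52.1 and 74.1 CPM. All 6 endothelial markers were lower in each comparison, and 1 passed the study's thresholds, only with all libraries. No satellite cell marker passed in either comparison, and 1 immune marker did, upward, without the library labelled Ctrl replicate 4.

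The other genes of the agrin pathway, 27 in all and all tested, carry the signal from MuSK to the cytoskeleton or anchor the receptor and the esterase. With all libraries 12 were higher, edgeR called none by adjusted p, DESeq2 called Sntb1 (adjusted p = 0.0165), and Sntb1 and Pak1 passed the study's thresholds, both higher. Over all tested genes, 6.31% passed these thresholds in either direction and 3.43% passed upward. The median log2 fold change was -0.05, beside -0.01 over all tested genes. Sntb1 encodes the adaptor beta1-syntrophin of the dystrophin complex. It reached 9.61, 9.40 and 14.1 CPM in Ctrl replicates 1 to 3, 22.0 CPM in the library labelled Ctrl replicate 4, and 35.4 and 35.3 CPM in the LSD1skm-/- libraries. Both LSD1skm-/- libraries lay above every Ctrl library, and edgeR's log2 fold change was 1.35 (standard error 0.32, edgeR adjusted p = 0.557), or 1.68 without that library (standard error 0.18, edgeR adjusted p = 0.00425). The latter call did not hold when LSD1skm-/- replicate 2 was dropped as well (edgeR adjusted p = 0.0501). Pak1, a kinase that acts on actin downstream of RAC1 and CDC42, had 19.8 to 34.8 CPM in Ctrl and 38.6 and 39.6 CPM in LSD1skm-/- libraries, with an adjusted p of 0.0902 by edgeR and 0.0189 by DESeq2 without that library. With all libraries its unadjusted p was 0.0447, and dropping Ctrl replicate 1 (0.0981), Ctrl replicate 3 (0.0652) or an LSD1skm-/- library (0.128 and 0.146) took it past 0.05. Agrn, the gene of agrin itself, overlapped (8.19 to 13.6 CPM against 9.64 and 7.79), as did Utrn, which encodes utrophin (18.6 to 25.7 CPM against 20.7 and 16.5). Colq, the collagen tail that anchors acetylcholinesterase, had 6.64 to 8.32 CPM in Ctrl replicates 1 to 3, 9.97 CPM in the library labelled Ctrl replicate 4, and 9.17 CPM in both LSD1skm-/- libraries. Without that library Ptpn11, named after its values were seen, was the only gene of the list to pass the study's thresholds downward (log2 fold change -0.39, adjusted p = 0.0588 by edgeR and 0.00168 by DESeq2).

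Genes of neuregulin and ETS signaling, which drive transcription under the synapse, gave no call by edgeR's adjusted p in either comparison, while DESeq2 called Etv4 without the library labelled Ctrl replicate 4 (adjusted p = 0.0206; 12 of 14 tested, median log2 fold change -0.01 with all libraries and 0.01 without the library labelled Ctrl replicate 4). Etv4, an ETS factor, was the only one past the study's thresholds, and only without that library. It had 3.39, 2.002 and 1.80 CPM in Ctrl replicates 1 to 3, 4.92 CPM in the library labelled Ctrl replicate 4, and 4.29 and 5.96 CPM in the LSD1skm-/- libraries (log2 fold change 1.10 without that library, standard error 0.30, edgeR adjusted p = 0.09). Etv5 (5.86 to 9.26 CPM in Ctrl, 8.10 and 8.56 CPM in LSD1skm-/- libraries), Gabpa (22.0 to 28.6 against 30.8 and 23.0 CPM), Erbb2 (2.37 to 3.84 against 2.65 and 2.21 CPM) and Erbb3 (3.11 to 5.19 against 4.69 and 4.76 CPM) overlapped between the groups with all libraries. So did Prkar1a (121 to 147 against 133 and 128 CPM), a regulatory subunit of protein kinase A. Without the library labelled Ctrl replicate 4, both LSD1skm-/- libraries lay above Ctrl for Erbb3, as for 20.1% of all tested genes. Ctrl replicates 1 to 3 had 3.11 to 4.31 CPM of Erbb3 (log2 fold change 0.35, edgeR adjusted p = 0.359).

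Transcripts of the nuclei beneath the synapse, 14 of them with 11 tested, and the basal lamina of the synapse, 15 with 13 tested, gave no adjusted call by edgeR either, and Etv4, which is also among the former, was the gene that DESeq2 called in the second comparison. Their median log2 fold changes were 0.09 for the former and 0.13 for the latter with all libraries and 0.12 for the former and 0.20 for the latter in the comparison that omits the library labelled Ctrl replicate 4. Ufsp1 had 14.6 to 18.5 CPM in Ctrl and 15.6 and 21.5 CPM in LSD1skm-/- libraries. With all libraries, Phldb2 (8.72 to 11.0 against 9.80 and 6.46 CPM) came next to Etv4 in size of change among the transcripts of these nuclei. Among the basal lamina genes, the collagen gene Col4a5 (1.69 to 4.12 against 3.75 and 2.42 CPM) came next to Agrn. Neither Phldb2 nor Col4a5 passed.

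Of the further genes of congenital myasthenic syndromes, 14 of 21 were tested and Slc25a1 and Prepl passed the study's thresholds with all libraries, both lower. Over all tested genes, 6.31% passed them in either direction. Prepl had 13.9 to 17.4 CPM in Ctrl and 13.0 and 10.2 CPM in LSD1skm-/- libraries, so the groups did not overlap (log2 fold change -0.40, unadjusted p = 0.0281, edgeR adjusted p = 0.557). Omitting the library labelled Ctrl replicate 4 gave -0.44 (edgeR adjusted p = 0.161). With all libraries, the unadjusted p was 0.204 if LSD1skm-/- replicate 2 was dropped and 0.0632 if Ctrl replicate 3 was. Slc25a1, the mitochondrial citrate carrier, had 4.66, 4.53 and 1.25 CPM in Ctrl replicates 1 to 3, 6.70 CPM in the library labelled Ctrl replicate 4, and 1.04 and 1.99 CPM in the LSD1skm-/- libraries, which overlapped with Ctrl replicate 3. Its log2 fold change was -1.49 with all libraries, and -1.18 (edgeR adjusted p = 0.305) if the library labelled Ctrl replicate 4 was omitted. With all libraries the unadjusted p was 0.044, lay between 0.0649 and 0.228 when any library but Ctrl replicate 3 was dropped, and was 0.00131 without Ctrl replicate 3.

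Regulators and readouts of electrical activity and denervation were read from 17 genes, of which 15 were tested. None was called by edgeR's adjusted p in either comparison, and the median log2 fold change was -0.11, or -0.14 without the library labelled Ctrl replicate 4. Myog, the gene of myogenin, had 3.88 to 5.98 CPM in Ctrl replicates 1 to 3 and 6.996 CPM in the library labelled Ctrl replicate 4. The LSD1skm-/- libraries had 7.44 and 6.09 CPM of Myog. They lay above Ctrl only without that library (log2 fold change 0.42, edgeR adjusted p = 0.334), as for 20.1% of all tested genes. Ncam1, a cell adhesion molecule that denervated fibers raise, had 4.43 to 5.42 CPM in Ctrl and 4.60 and 5.53 CPM in LSD1skm-/- libraries. Hdac4 ranged from 22.8 to 43.9 CPM in Ctrl and was 40.6 and 28.3 CPM, and Hdac9 (1.71 to 3.57 against 1.26 and 1.83 CPM) and the embryonic myosin gene Myh3 (4.95 to 8.64 against 4.92 and 4.33 CPM) did not pass either. Dach2 was not tested, with 59 to 85 reads in Ctrl replicates 1 to 3, 20 reads in the library labelled Ctrl replicate 4, and 32 and 9 reads in the LSD1skm-/- libraries. Camk2b, named after its values were seen, was the only gene of the list past the study's thresholds, downward and only without the library labelled Ctrl replicate 4 (log2 fold change -0.51, adjusted p = 0.0859 by edgeR and 0.00917 by DESeq2).

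Receptor subunits of neurons and other tissues had few reads, and 5 of them averaged at most 3 reads per library. Chrna2 had 57, 22, 18 and 90 reads in Ctrl replicates 1 to 4 and 24 and 25 reads in the LSD1skm-/- libraries. Of 11 genes 9 were in the table, and Chrna9 alone was tested. Chrna9 encodes the alpha9 subunit, best known from the hair cells of the inner ear. It had 11, 11 and 6 reads in Ctrl replicates 1 to 3, 275 reads in the library labelled Ctrl replicate 4, and 135 and 211 reads in the LSD1skm-/- libraries, or 0.318, 0.339, 0.174, 6.29, 4.25 and 5.61 CPM in that order. The log2 fold change was 1.43 with all libraries (standard error 1.19, edgeR adjusted p = 0.701) and 4.15 without the library labelled Ctrl replicate 4 (standard error 0.29, edgeR adjusted p = 0.00115), a fold of 17.7. In this comparison Chrna9 passed the limit of a mean above 50 reads only through the LSD1skm-/- libraries, so it had to differ to be tested at all. With the limit lowered to a mean of at least 1 read, which its Ctrl reads also meet, edgeR's adjusted p was 0.000544. When LSD1skm-/- replicate 2 was dropped too, Chrna9 fell under the count limit, and the calls without each remaining library held (edgeR adjusted p up to 0.0138). Per kilobase of exon the LSD1skm-/- mean of Chrna9, 1.63 CPM, lay above that of Chrnd, 1.08 CPM, and below that of Chrna1, 5.40 CPM.

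**Figure D4:**
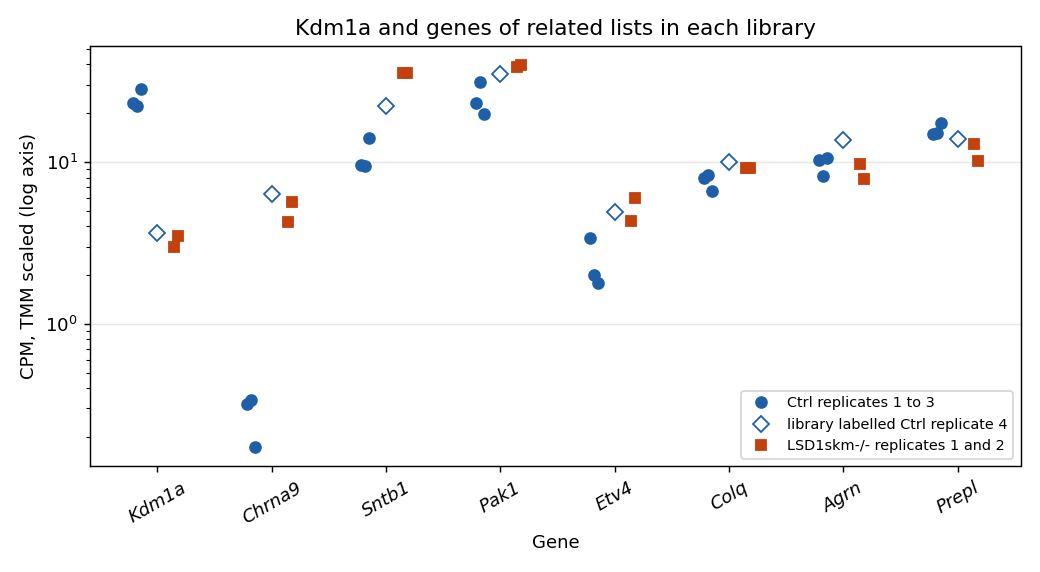
CPM (log axis, TMM scaled) of Kdm1a and of 7 genes from the lists around the junction in each library, with symbols as in the plot of the members by library. For Kdm1a and Chrna9 the open diamond, the library labelled Ctrl replicate 4, lies with the LSD1skm-/- squares, and for Sntb1 it lies between them and Ctrl replicates 1 to 3.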

How the data were processed

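The authors sequenced single-end reads, mapped them to mm10, kept uniquely aligned reads and deposited whole-number counts of reads per gene, without normalization. The strand setting of the counting is not given in the sources used here. Every column of the table was mapped to a library by its title. Genes whose counts averaged more than 50 in the libraries of a fit were compared in R 4.3.3 by the quasi-likelihood test of edgeR 4.0.16, with TMM scaling, genotype as single factor and Benjamini-Hochberg adjustment over all tested genes, and the script was tested on simulated data. DESeq2 1.42.0 was an alternative. Log2 CPM used a prior count of 2. Members and gene lists were chosen with earlier results of these data known. Named genes were all members, Kdm1a, genes of other lists past an adjusted p of 0.05 in either comparison, the 2 largest changes of each list and 13 genes fixed by name. Promoters were taken from a RefSeq table of GRCm38.p6, which matched 7 of the 10 members, and gene models from GENCODE vM21. Other scalings, filters, a replicate block and each library left out were tried. At 30654828 to 41278769 reads per library, counting error adds to the spread of genes near the limit.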

Additional observations from a re-analysis of the deposited data

Results flagged for a closer look

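Among the 4 Ctrl libraries, 36 levels and ratios were examined for a single library far from the others, as the gap to its nearest neighbour over the group's whole range on the log2 scale, and 5 exceeded 0.829, a limit that chance passes in about 1 of 20 groups. Kdm1a (0.879) and Chrna9 (0.837) stood out through the library labelled Ctrl replicate 4, which was the lowest for the former and the highest for the latter. Chrnd (0.843) stood out through Ctrl replicate 2, with 60 reads against 75 to 98 in the other Ctrl libraries. Chrng (0.919) stood out through Ctrl replicate 3, with 6 reads against 3 to 4. Ufsp1 (0.8998) stood out through Ctrl replicate 3, at 14.6 CPM against 18.1 to 18.5 CPM.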

How the results depend on the processing

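With all 6 libraries, the study's thresholds passed 717 genes and 2 members. The gene count moved to 1267 with a mean count of at least 1, and to 1633 genes and 4 members with DESeq2 without the library labelled Ctrl replicate 4. It ran from 339 to 1681 over the libraries left out in turn, lowest without LSD1skm-/- replicate 2 and highest without the library labelled Ctrl replicate 4, and the members from 1 to 4. Library size alone passed 1 member. By adjusted p, DESeq2 called 46 genes in place of 0, leaving out each library called 0 to 590 genes and 0 to 2 members, and DESeq2 without the library labelled Ctrl replicate 4 called 1037 genes and 4 members.

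Without the library labelled Ctrl replicate 4, alternatives were chosen after seeing the data. A mean count of at least 1 moved the study's count to 2600, and DESeq2 moved the adjusted calls to 1037 genes and 4 members. Library size alone called 3 members. Leaving out a further library gave 94 to 531 genes and 0 to 3 members by adjusted p, and 3 to 6 members by the study's thresholds, both lowest without LSD1skm-/- replicate 2. Lrp4 was among the 6 members without Ctrl replicate 2, and Musk, downward, among the 6 without LSD1skm-/- replicate 1.

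Leaving out 1 library turned the sign of several members that passed neither rule in the 2 comparisons reported. Starting from all 6 libraries, log2 fold changes ran from -0.32 to 0.070 for Chrne, from -0.76 to 0.15 for Musk, from -0.17 to 0.073 for Dok7 and from -0.20 to 0.29 for Lrp4. Once the library labelled Ctrl replicate 4 was out, they ran from -0.29 to 0.10 for Chrne and from -0.30 to 0.43 for Lrp4. The difference in the log2 ratio of Chrng to Chrne ran from -0.53 to 0.52, and that in the mean of the adult subunits from 0.34 to 0.55, which kept its sign. The cause of these shifts was not tested.

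With the replicate number as a block, 1668 genes and 4 members passed the study's thresholds and 632 genes and 1 member, Chrnb1, the adjusted p. The 2 groups share only numbers 1 and 2, and deviations of same-numbered libraries from their group means had r = -0.23 and -0.03, so the block pairs libraries by number alone. The low counts of Chrnd and Chrng and the 2 LSD1skm-/- libraries limit what could be detected.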
